A study of Mus musculus with 32 samples.

Results

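Hox genes encode the homeodomain transcription factors that give cells their position along the head-to-tail axis of the embryo. The genes taken were the protein-coding rows whose symbol is Hox, a cluster letter from a to d and a number, which gave 39 genes in 40 rows of the 54532 rows measured (22046 of them protein-coding). Hoxd4 had 2 gene models in the table, and the one with fewer reads is counted as a separate row. The rule takes rows by name and not by a measured value, but the Hox family was chosen with earlier results of these data known.

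RNA sequencing was done on 32 libraries of 4 tissues from wild-type C57/Bl6j mice. The tissues were inguinal white adipose tissue (iWAT, subcutaneous fat of the groin), epididymal white adipose tissue (eWAT, intra-abdominal fat), interscapular brown adipose tissue (BAT, heat-producing fat between the shoulder blades) and liver. All mice ate a diet with 60% fat for 12 weeks, then stayed on the study for 4 weeks with 3 doses per week of vehicle or of auranofin at 1 mg/kg, a gold compound known as an inhibitor of thioredoxin reductase. Each of the 8 groups had 4 libraries. Every animal had the high-fat diet, and no lean group was analysed here. The labels do not say which libraries came from separate animals, so each p-value measures only the spread between these libraries.

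Mammalian Hox genes lie in 4 clusters, and genes with the same number in different clusters (a paralog group) descend from 1 ancestral gene. Low-numbered genes lie at the 3′ end of a cluster and are switched on early and far forward in the embryo, whereas high-numbered genes lie at the 5′ end and are switched on later and nearer the tail. Fat and connective tissue cells of the adult keep part of this pattern, which is why Hox levels are used to tell depots apart. In the mm10 coordinates of the deposited table, cluster A spans chromosome 6 from 52155590 to 52260880 with 11 genes, and cluster B spans chromosome 11 from 96194316 to 96368256 with 10 genes. Cluster C spans chromosome 15 from 102921103 to 103036852 with 9 genes, and cluster D spans chromosome 2 from 74668310 to 74765142 with 9 genes.

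Promoters of 4 genes are shown because the levels of these genes separate the tissues below: Hoxa5 is the leading Hox gene of BAT, Hoxa10 is nearly restricted to iWAT, Hoxd8 is high in every fat depot and Hoxb4 leads in liver. Each is 300 bases of the RefSeq reference (GRCm38.p6), 250 before and 50 after the gene's start, 5′ to 3′ on the gene's strand, with CG dinucleotides in capitals because they are the sites of DNA methylation. The windows are chr6:52204538-52204837 (minus strand) for Hoxa5, chr6:52240805-52241104 (minus strand) for Hoxa10, chr2:74704365-74704664 (plus strand) for Hoxd8 and chr11:96318017-96318316 (plus strand) for Hoxb4.
Hoxa5: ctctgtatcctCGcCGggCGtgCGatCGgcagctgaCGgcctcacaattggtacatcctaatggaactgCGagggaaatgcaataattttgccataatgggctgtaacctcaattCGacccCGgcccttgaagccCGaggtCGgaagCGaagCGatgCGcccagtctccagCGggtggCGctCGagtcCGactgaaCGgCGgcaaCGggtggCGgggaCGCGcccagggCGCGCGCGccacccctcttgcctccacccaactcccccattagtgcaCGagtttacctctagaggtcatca
Hoxa10: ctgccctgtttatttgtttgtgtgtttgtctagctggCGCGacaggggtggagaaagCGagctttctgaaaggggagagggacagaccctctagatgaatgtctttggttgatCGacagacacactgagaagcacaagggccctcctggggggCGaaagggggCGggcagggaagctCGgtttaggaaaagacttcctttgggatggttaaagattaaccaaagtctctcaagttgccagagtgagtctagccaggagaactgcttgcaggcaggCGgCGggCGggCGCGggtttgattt
Hoxd8: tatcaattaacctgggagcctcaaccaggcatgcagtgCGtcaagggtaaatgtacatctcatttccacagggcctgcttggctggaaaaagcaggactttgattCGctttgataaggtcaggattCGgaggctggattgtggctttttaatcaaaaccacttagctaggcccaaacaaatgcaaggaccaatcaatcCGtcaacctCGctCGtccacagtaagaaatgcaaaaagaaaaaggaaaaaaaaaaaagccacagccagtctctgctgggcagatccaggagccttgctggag
Hoxb4: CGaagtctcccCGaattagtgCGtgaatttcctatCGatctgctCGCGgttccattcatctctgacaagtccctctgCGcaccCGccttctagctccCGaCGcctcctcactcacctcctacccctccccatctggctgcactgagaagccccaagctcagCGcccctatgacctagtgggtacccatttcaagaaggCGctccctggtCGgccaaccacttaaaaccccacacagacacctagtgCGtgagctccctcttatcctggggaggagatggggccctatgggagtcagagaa
The window of Hoxa5 held 29 CG dinucleotides, a number reached by 12.9% of the 32851 promoter windows of the reference. Hoxb4 had 14 (reached by 36.3%), Hoxa10 had 12 (39.6%) and Hoxd8 had 6 (56.4%). Another Hoxa10 window, chr6:52234890-52235189 and away from the start of the gene model, held 21 (24.8%). It had CCAAT and TATAAA but no GGGCGG, and which Hoxa10 start was used in these tissues was not tested. Promoter windows were found for 22 of the 39 Hox genes, 24 windows in all, with a median of 14.5 CG dinucleotides (4 to 45) against 7.0 over all windows. Searched on both strands, CCAAT was present in 15 of the 24 Hox windows (62.5%, against 37.4% of all windows), including those of Hoxa5 and Hoxd8. GGGCGG was present in 10 (41.7%, against 35.7%), including the Hoxa10 window shown, and TATAAA in 4 (16.7%, against 13.6%). These matches describe letters in the windows only.

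Libraries held between 13606756 and 19205640 reads assigned to genes. Of these, Hox genes took only 60 to 105 in a liver library, 1574 to 2876 in BAT, 3125 to 5112 in eWAT and 5657 to 7581 in iWAT. Levels are in FPKM (read fragments scaled to gene length and library size). The library size implied by the deposited FPKM differed from the reads assigned to genes. It was 13267136 against 18109130 reads in liver vehicle library 1, and 24013795 against 17036845 in eWAT vehicle library 1. The tissue labels were checked against marker genes in the vehicle libraries. The summed FPKM of 4 brown adipocyte markers was 3053 to 4495 in BAT. It was 14.6 to 29.3 in iWAT, 1.49 to 7.76 in eWAT and 297.7 to 463.8 in liver. In each liver library 2 of these 4 markers were at 0. The 5 hepatocyte markers summed to 75480 to 96360 in liver. They reached 586.5 in iWAT vehicle library 1 (20.2 to 52.9 in the other iWAT vehicle libraries) and 534.8 in eWAT auranofin library 2. Skeletal muscle markers stood high in iWAT vehicle library 4 (1169) and iWAT auranofin library 4 (674) against 9.46 to 30.1 in the other iWAT libraries, and ranged from 2.59 to 2180 in BAT. Macrophage markers summed to 298.6 to 759.5 in eWAT under vehicle and to 42.9 to 95.6 in iWAT. In such bulk samples fewer cells of a type and less RNA per cell cannot be told apart.

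The 3 fat depots and liver differed in their Hox levels. Summed over all Hox rows, vehicle libraries reached 132.0 ± 18.0 FPKM in inguinal fat, 67.2 ± 12.7 in eWAT, 57.6 ± 10.9 in BAT and 2.80 ± 0.421 in liver (SD, n = 4 each). Of the 40 rows, 18 had a mean of 1 FPKM or more in iWAT, 14 in eWAT, 11 in BAT and 1 in liver, and those of the other tissues were all among the 18 of iWAT. No read was seen in any vehicle library for 7 rows in iWAT, 8 in eWAT, 16 in BAT and 24 in liver. Hoxb13, Hoxc12, Hoxc13, Hoxd11, Hoxd12 and Hoxd13, genes of the tail end, had no read in any of the 32 libraries, and Hoxb1, a hindbrain gene, had 1 read in all.

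**Figure D1:**
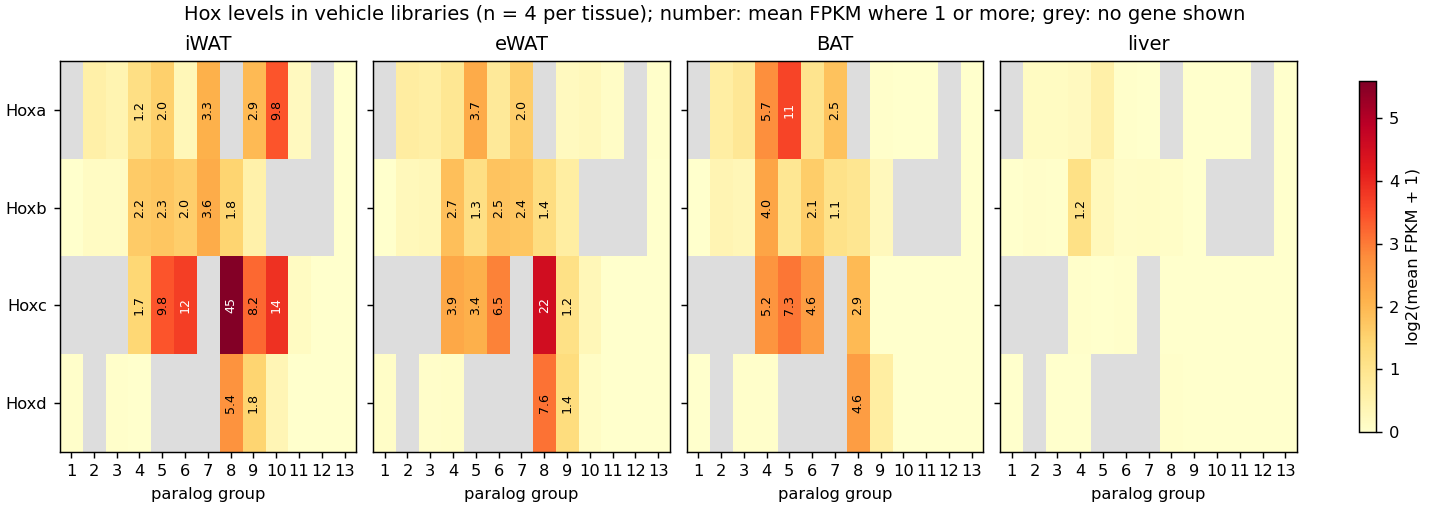
Log2(mean FPKM + 1) of Hox genes in the 4 vehicle libraries of a tissue, with 1 panel per tissue, clusters A to D as rows and paralog groups as columns; grey marks positions with no gene shown, and numbers give values of at least 1. Signal runs to paralog group 10 in iWAT, fades after group 9 in eWAT, stops at group 9 in BAT, and is near 0 throughout liver.

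The depots differed in how far towards the tail the expressed genes reached. Paralog groups 9 and above made up 22.9% to 33.6% of the summed Hox FPKM in the 8 iWAT libraries, 3.34% to 10.6% in eWAT, 1.06% to 2.43% in BAT and at most 0.934% in liver. The iWAT libraries overlapped with none of the others, and neither did those of eWAT with those of BAT. Group 10 alone gave 12.5% to 19.6% in iWAT and 0.149% to 2.05% in eWAT. Groups 4 and 5 went the other way, with 12.9% to 17.4% in iWAT, 18.9% to 29.7% in eWAT, 51.1% to 71.7% in BAT and 60.5% to 88.2% in liver. The shares of iWAT, eWAT and BAT did not overlap for groups 4 and 5. These are shares of unlike totals (vehicle means of 132.0 FPKM in iWAT and 2.80 in liver), so a larger share need not be a higher level.

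**Figure D2:**
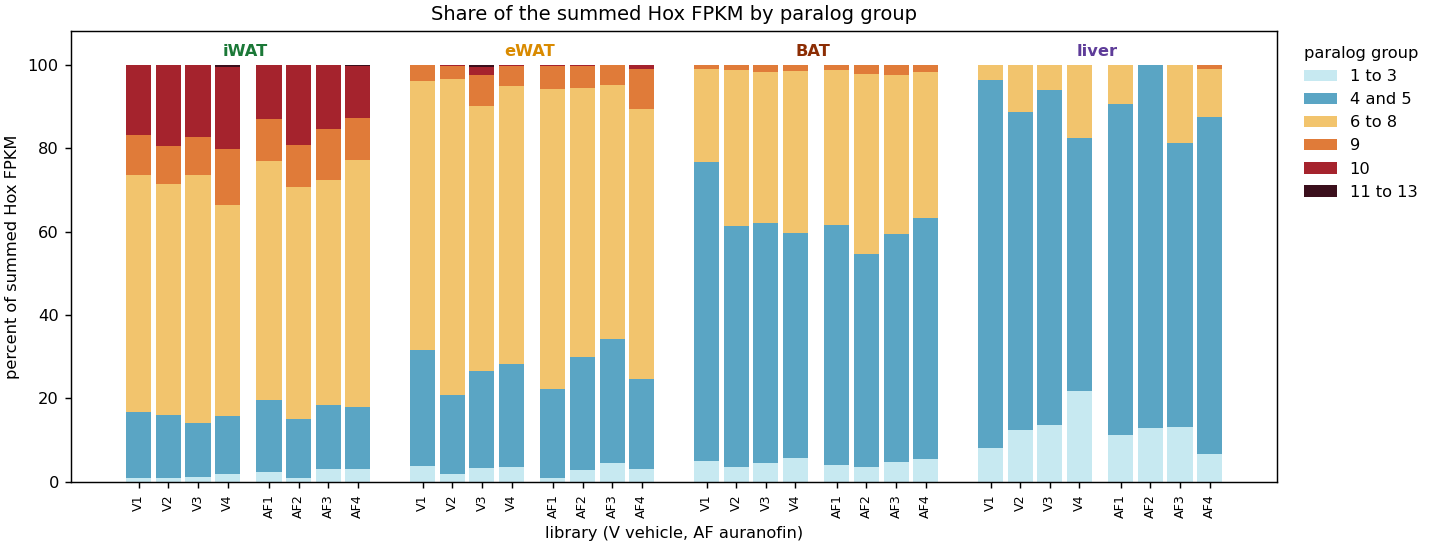
Share of the summed Hox FPKM (percent) held by bands of paralog groups, as 1 stacked bar for each of the 32 libraries, grouped by tissue and treatment. Groups 9 and above fill 22.9% to 33.6% of each iWAT bar and at most 2.43% of any BAT bar, whereas groups 4 and 5 fill at least 51.1% of each BAT bar.

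The clusters contributed unequally. Of the summed Hox FPKM, cluster C held 68.6% ± 4.97 in iWAT, 56.0% ± 6.07 in eWAT and 34.3% ± 4.48 in BAT (vehicle, SD, n = 4). In BAT cluster A had the highest mean share, 39.1% ± 1.88, although cluster C held more than A in vehicle library 2 (39.2% against 38.5%) and auranofin library 2 (38.3% against 37.05%). In liver cluster B held 60.4% ± 7.39, the largest share in each of the 8 libraries. Hoxc8 was the highest Hox gene in all 16 libraries of white fat, Hoxa5 in all 8 of BAT and Hoxb4 in all 8 of liver. Ordered by mean FPKM, iWAT had Hoxc8 first (45.4 ± 11.9), clear of Hoxc10 (13.8 ± 2.09), while Hoxc10, Hoxc6, Hoxc5, Hoxa10 and Hoxc9 followed with neighbours that overlapped. In eWAT Hoxc8 (22.3 ± 6.43) stood clear of Hoxd8 (7.58 ± 1.32) and Hoxc6 (6.55 ± 1.04), and these of Hoxc4 (3.88 ± 0.8293). In BAT Hoxa5 (11.2 ± 2.03) was followed by Hoxc5 (7.28 ± 2.22), Hoxa4 (5.67 ± 0.632) and Hoxc4 (5.23 ± 1.51), with every neighbouring pair among the first 8 overlapping. In liver Hoxb4 (1.195 ± 0.266) stood clear of Hoxa5 (0.503 ± 0.222).

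Differences between tissues were tested with limma on log2(FPKM + 1), fitted on all genes with a mean of at least 0.1 FPKM over the 16 vehicle libraries, with Benjamini-Hochberg adjustment over all of them. This log2 scale understates the change of genes near 0. Of the 40 Hox rows, 25 passed the filter. Hoxc10, Hoxa10 and Hoxa9 did so through iWAT alone, Hoxb2 needed its BAT values and Hoxb3 those of both BAT and eWAT, so these 5 were admitted by the tissue where they are high. Their adjusted p-values are given from a fit with no filter, and the counts below are also given without them. Between eWAT and iWAT, 10 of the 25 passed the test (adjusted p under 0.05), where 38.4% of all genes did, so the share called was near the background, and 7 of 20 passed without those 5. Hoxc4, Hoxa5 and Hoxd8 were higher in eWAT, where 19.4% of all genes were called higher. Lower, as 18.9% of all genes were, came Hoxc10, Hoxa10, Hoxc9, Hoxa9, Hoxc5, Hoxc6 and Hoxb5. The median log2 difference was -0.25 over the 25 and 0.00 over all genes. Between BAT and iWAT, 17 of 25 passed, against 42% of all genes, 7 of them higher in BAT (20.9% of all genes) and 10 lower (21.1%), with medians of -0.28 and 0.00. Without the 5 there were 13 of 20, 6 higher and 7 lower. Between BAT and eWAT, 10 of 25 passed, against 46.2% of all genes, again near the background, and none of the 10 was among those 5. Higher in BAT (20.9% of all genes) were Hoxa3, Hoxa4, Hoxa5, Hoxb4 and Hoxc5, and lower (25.3%) Hoxb7, Hoxb9, Hoxc8, Hoxc9 and Hoxd8, with medians of -0.16 and -0.01. These comparisons share libraries and are not independent of each other.

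The depots do not share a common FPKM total. When each library was rescaled to the same total over all genes (the TPM scale), the median difference of all genes moved to 0.30 for eWAT against iWAT, -0.22 for BAT against iWAT and -0.59 for BAT against eWAT. The Hox calls then split into 8 higher and 5 lower, 4 higher and 13 lower, and 2 higher and 13 lower. For BAT against eWAT, quantile normalisation gave 8 higher and 4 lower and voom on rebuilt reads gave 4 higher and 8 lower. Among the depot differences that passed the test, Hoxb4 and Hoxa3 in BAT against eWAT changed sign with the scaling, to -0.16 and -0.05 on the TPM scale.

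Paralog groups 1 to 3, which pattern the hindbrain and pharyngeal arches, were low in every tissue, with no vehicle mean above the 0.862 FPKM of Hoxa3 in BAT. Hoxa3, needed for the thymus and parathyroid, was 1.02, 0.714, 0.766 and 0.946 FPKM in BAT vehicle libraries 1 to 4 and 0.196, 0.397, 0.299 and 0.451 in iWAT. The groups did not overlap, and the log2 difference was 0.48 (SE 0.109, adjusted p = 0.00233, limma). Over eWAT the difference of Hoxa3 was 0.28 (adjusted p = 0.0439) and ended above the threshold in 11 of 16 alternative settings. Hoxb2, a hindbrain gene, also rose, by 0.27 in BAT over iWAT (adjusted p = 0.00638 with no filter, or 0.0546 on the TPM scale). Hoxa2, which acts in the hindbrain and the second pharyngeal arch, had means of 0.485 to 0.601 FPKM over the 3 fat depots and did not pass the test between any pair of depots. Exons of other genes cover 27.1% of the exon bases of Hoxa3 and 52.9% of those of Hoxb3. In Hoxb2 they cover 27.3%, by Hoxb3os on the opposite strand. In Hoxd3 they cover 62.3% on the same strand or 62.8% on either. The kit did not keep strand, so reads from genes on opposite strands cannot be told apart.

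Of the group 4 and 5 genes, which pattern the neck and upper chest, Hoxa4 and Hoxa5 were higher in BAT than in both white depots. Hoxa4 (chromosome 6, 52189671 to 52191753), a gene of the neck vertebrae, was 6.21, 5.98, 5.74 and 4.77 FPKM in the BAT vehicle libraries. It was 1.42, 1.60, 0.618 and 1.36 in iWAT and 0.941, 0.452, 1.03 and 1.08 in eWAT. Every BAT library was above every white fat library, by 4.55-fold in the means over iWAT (log2 difference 1.59, SE 0.152, adjusted p = 7.85e-07) and 6.48-fold over eWAT (1.84, adjusted p = 1.14e-07). On the opposite strand Gm29430 overlaps 16% of the exon bases of Hoxa4. Hoxa4 in eWAT and iWAT did not pass the test (log2 difference -0.25, adjusted p = 0.213).

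Hoxa5 (chromosome 6, 52201754 to 52204587), known for its part in lung and shoulder girdle development and in adipose tissue, was graded over all 4 tissues. Vehicle libraries 1 to 4 gave 11.5, 13.7, 8.81 and 10.9 FPKM in BAT and 3.33, 3.51, 3.76 and 4.15 in eWAT. They gave 2.03, 1.75, 1.73 and 2.34 in iWAT and 0.321, 0.326, 0.780 and 0.585 in liver. No library of 1 tissue overlapped with those of another. The means were 5.72-fold higher in BAT than in iWAT (log2 difference 2.04, SE 0.130, adjusted p = 9.78e-09) and 3.05-fold higher than in eWAT (1.37, adjusted p = 4.89e-07). The mean in eWAT was 1.88-fold that in iWAT (0.66, SE 0.130, adjusted p = 0.000966).

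Hoxc4, next to Hoxc5 at the 3′ end of cluster C, was 5.31, 7.08, 3.39 and 5.15 FPKM in BAT, 3.70, 2.79, 4.37 and 4.66 in eWAT and 2.01, 1.18, 1.67 and 1.84 in iWAT. All BAT and eWAT libraries lay above all iWAT libraries, with log2 differences of 1.198 for BAT over iWAT (adjusted p = 3.62e-05) and 0.86 for eWAT over iWAT (SE 0.168, adjusted p = 0.000945). BAT and eWAT overlapped in Hoxc4, and their difference of 0.34 did not pass (adjusted p = 0.117). Hoxc5 was under vehicle highest in iWAT in the mean and lowest of the depots in eWAT. Its vehicle values were 12.6, 9.73, 10 and 6.84 FPKM in iWAT, 6.36, 10.6, 6.23 and 5.94 in BAT and 2.35, 2.94, 4.43 and 3.73 in eWAT. The eWAT libraries lay below all others, 2.91-fold below iWAT in the means (log2 difference -1.30, SE 0.189, adjusted p = 9.42e-05). Hoxc5 in BAT was 0.91 above eWAT on the log2 scale (adjusted p = 0.000922, but 0.27 and adjusted p = 0.274 on the TPM scale). Hoxc5 and Hoxc10 share 5.4% and 8.7% of their exon bases.

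Hoxb4, known for expanding blood stem cells, was read in every library of each tissue. Its vehicle values were 4.79, 4.01, 3.96 and 3.41 FPKM in BAT, 2.73, 1.57, 3.12 and 3.22 in eWAT, 2.66, 2.48, 2.08 and 1.44 in iWAT and 1.498, 1.33, 0.920 and 1.03 in liver. BAT lay above every white fat library, with log2 differences of 0.68 over iWAT (adjusted p = 0.00347) and 0.48 over eWAT (adjusted p = 0.025). The difference of Hoxb4 from eWAT was -0.16 on the TPM scale (adjusted p = 0.556) and 0.32 without eWAT vehicle library 2 (adjusted p = 0.0773). On the TPM scale its difference from iWAT was 0.48 (adjusted p = 0.0873). Hoxb5, which acts in the enteric nervous system, went the other way. It was 3.14, 2.55, 2.16 and 1.40 FPKM in iWAT, 1.11, 0.535, 1.40 and 2.01 in eWAT and 0.915, 0.589, 0.840 and 1.17 in BAT. BAT lay below iWAT in every library for Hoxb5 (log2 difference -0.80, adjusted p = 0.0033). The eWAT libraries overlapped with iWAT (-0.56, adjusted p = 0.0296), and without iWAT vehicle library 1 the adjusted p was 0.0995.

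**Figure D3:**
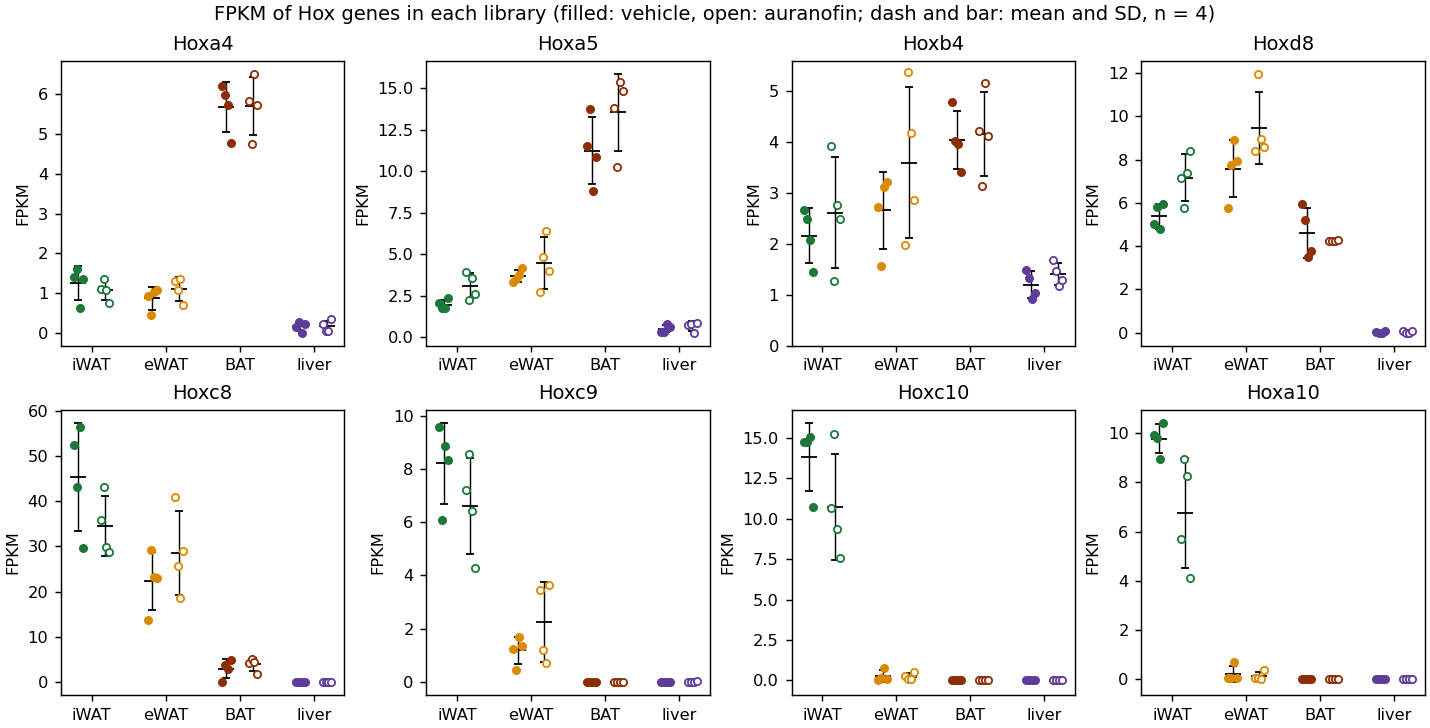
FPKM of 8 Hox genes in each library, 1 panel per gene, with filled points for vehicle, open points for auranofin, and bars for the mean and SD of each group of 4 libraries. Hoxa4 and Hoxa5 are highest in BAT, Hoxc8 in both white depots, and Hoxc10 and Hoxa10 have their high values in iWAT alone, where vehicle libraries reach 10.7 to 15.1 and 8.97 to 10.4 FPKM.

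Groups 6 to 8, which pattern the trunk, held most of the white fat signal. Hoxc6, a gene of the upper trunk and the mammary gland, was 15.3, 12.0, 11.3 and 9.81 FPKM in iWAT, 6.11, 5.29, 7.38 and 7.43 in eWAT and 2.33, 7.003, 4.34 and 4.84 in BAT. Its iWAT libraries stood above all others, 1.85-fold over eWAT (log2 difference -0.79 for eWAT minus iWAT, SE 0.203, adjusted p = 0.00641) and 2.61-fold over BAT (-1.27, adjusted p = 0.000126). On the TPM scale the Hoxc6 difference between eWAT and iWAT was -0.43 (adjusted p = 0.143). BAT and eWAT overlapped in Hoxc6, and the test was not passed (adjusted p = 0.0662).

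Hoxc8 (chromosome 15, 102990607 to 102994111), which sets the identity of thoracic vertebrae and lower neck motor neurons, was the most abundant Hox transcript of white fat. It reached 52.5, 43.1, 56.4 and 29.65 FPKM in iWAT and 13.6, 29.15, 23.3 and 23.1 in eWAT. BAT gave 0, 3.86, 2.84 and 4.94, and liver had no Hoxc8 read. White and brown fat were far apart, 15.6-fold for iWAT over BAT (log2 difference -3.80 for BAT minus iWAT, SE 0.419, adjusted p = 3.38e-06) and 7.65-fold for eWAT over BAT (-2.80, adjusted p = 5.25e-05). The iWAT mean was 2.04-fold that of eWAT, but the lowest iWAT and highest eWAT libraries were nearly equal, and the difference did not pass the test (-1.002, adjusted p = 0.072). BAT vehicle library 1, the one without Hoxc8, was also lowest of its group in Hoxa7 (0.521 FPKM against 2.09 to 4.195) and Hoxb6 (0.572 against 2.14 to 2.83).

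Hoxd8 (chromosome 2, 74704615 to 74707933) was the one gene of cluster D above 3 FPKM in every fat library. It was 5.75, 7.73, 8.89 and 7.95 FPKM in eWAT, 5.03, 5.802, 4.77 and 5.93 in iWAT and 5.93, 5.23, 3.52 and 3.76 in BAT. The depots overlapped at their edges for Hoxd8, and eWAT passed the test over both iWAT (log2 difference 0.42, SE 0.141, adjusted p = 0.0292) and BAT (-0.62 for BAT minus eWAT, adjusted p = 0.00185). Without eWAT vehicle library 3 the difference of Hoxd8 from iWAT was 0.34 (adjusted p = 0.0847). Hoxb7 was 5.32, 2.89, 3.72 and 2.56 FPKM in iWAT, 2.54, 1.56, 2.56 and 2.75 in eWAT and 0.583, 1.39, 1.14 and 1.38 in BAT. All white fat libraries lay above all BAT libraries in Hoxb7, 3.22-fold for iWAT (-1.10 for BAT minus iWAT, adjusted p = 0.000164) and 2.09-fold for eWAT (-0.66, adjusted p = 0.00727).

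The remaining trunk genes with values were Hoxb8, Hoxa7, Hoxb6 and Hoxa6. Hoxb8, whose loss makes mice groom to excess, was 2.10, 1.69, 1.78 and 1.61 FPKM in iWAT, 0.980, 0.876, 1.501 and 2.07 in eWAT and 0.597, 0.911, 0.805 and 1.40 in BAT. It fell by 0.55 on the log2 scale in BAT against iWAT (adjusted p = 0.00807), with no overlap, and its eWAT values spanned the gap. Hoxa7 was 3.29, 2.79, 3.89 and 3.29 FPKM in iWAT, 1.16, 1.66, 2.15 and 3.00 in eWAT and 0.521, 4.195, 2.09 and 3.24 in BAT. Hoxb6 was 1.91, 2.22, 2.01 and 1.78 FPKM in iWAT, 2.21, 0.979, 3.26 and 3.40 in eWAT and 0.572, 2.67, 2.83 and 2.14 in BAT. Neither Hoxa7 nor Hoxb6 passed the test between any 2 fat depots, and their libraries overlapped throughout. Hoxa6 was low, at a mean of 0.239 FPKM in iWAT and 0.983 in BAT, and rose by 0.63 in BAT (adjusted p = 0.0255). The adjusted p for Hoxa6 was 0.0825 without BAT vehicle library 2, 0.081 and 0.0561 without iWAT vehicle library 1 or 2, and 0.0624 on the TPM scale, and its mean ratio of 4.12 went to 2.66 without BAT library 2 and 6.59 without iWAT library 4.

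Of groups 9 and 10, which pattern the lower back and hindlimb level, Hoxc10, Hoxa10 and Hoxa9 were at or near 0 outside iWAT. Hoxc10 (chromosome 15, 102966796 to 102971893), known for hindlimb motor neurons and as a gene of subcutaneous fat, was 14.8, 14.8, 15.1 and 10.7 FPKM in iWAT. It was 0.0436, 0.126, 0.788 and 0.0489 in eWAT, and no BAT or liver library had a read. The iWAT mean was 54.95-fold that of eWAT (log2 difference -3.59 for eWAT minus iWAT, SE 0.149, adjusted p = 1.27e-08 with no filter), or 189.9-fold without eWAT vehicle library 3. Set against a floor of 3 reads over the 4 BAT libraries, Hoxc10 was at least 498.7-fold higher in iWAT (-3.88 for BAT minus iWAT, adjusted p = 5e-10 with no filter).

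Hoxa10 (chromosome 6, 52231197 to 52240854), known for the lumbar vertebrae and the reproductive tract, had the same shape. It was 9.93, 9.80, 8.97 and 10.4 FPKM in iWAT and 0.0382, 0.0588, 0.697 and 0.0571 in eWAT, with no read in BAT or liver. Every iWAT vehicle library was above 8 FPKM and every eWAT vehicle library below 1. The ratio of means of Hoxa10 was 45.95 (log2 difference -3.18, SE 0.126, adjusted p = 9.3e-09 with no filter), or 190.3 without eWAT vehicle library 3, and the level in iWAT was at least 604-fold that in BAT (-3.43, adjusted p = 3.56e-10 with no filter).

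Hoxa9, a regulator of blood progenitors that lies beside Hoxa10, was 2.46, 3.68, 1.91 and 3.45 FPKM in iWAT, 0.0597, 0.0603, 0.462 and 0.0418 in eWAT and 0, 0.0679, 0 and 0.0255 in BAT. Its iWAT mean was 18.4-fold that of eWAT (log2 difference -1.74, SE 0.137, adjusted p = 3.47e-06 with no filter; 53.3-fold without eWAT vehicle library 3). Over BAT the ratio for Hoxa9 was 123 (-1.90, adjusted p = 1.65e-07 with no filter), or 338.6 without BAT vehicle library 2. Hoxc9, a gene of thoracic motor neurons, extended further into eWAT. It was 9.57, 6.07, 8.87 and 8.34 FPKM in iWAT and 1.25, 0.455, 1.68 and 1.35 in eWAT, with no read in the BAT and liver vehicle libraries. The iWAT mean of Hoxc9 was 6.94-fold that of eWAT (-2.10, SE 0.156, adjusted p = 6.62e-07), and the eWAT mean was at least 54.3-fold that of BAT (-1.09 for BAT minus eWAT, adjusted p = 3.44e-05).

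Hoxd9, which acts in the limbs and lower spinal cord, did not follow its paralogs Hoxa9 and Hoxc9. It was 1.79, 1.39, 1.55 and 2.45 FPKM in iWAT, 0.370, 0.945, 2.58 and 1.73 in eWAT and 0.491, 0.532, 0.582 and 0.732 in BAT. The white depots overlapped in Hoxd9 (log2 difference -0.29, adjusted p = 0.311), while BAT lay below every iWAT library (-0.81, adjusted p = 0.00657). Hoxb9 had vehicle means of 0.578 FPKM in eWAT, 0.448 in iWAT and 0.193 in BAT, and fell by 0.39 in BAT against eWAT (adjusted p = 0.0157, or 0.0576 without BAT vehicle library 1 and 0.057 with quantile normalisation). Hoxd10, a hindlimb gene, had a mean of 0.278 FPKM in iWAT against 0.0810 in eWAT, and no read in the BAT vehicle libraries. Hoxa11 and Hoxc11, which act in the limbs and kidney, reached means of 0.163 and 0.116 FPKM in iWAT. Hoxa13, a gene of digits and genital tract, had reads in iWAT vehicle library 4, eWAT vehicle library 3 and eWAT auranofin library 4 only, with at most 0.0870 FPKM.

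The eWAT signal of groups 9 to 13 was uneven. Vehicle library 3 held 0.697 FPKM of Hoxa10, 0.788 of Hoxc10, 0.462 of Hoxa9, 0.263 of Hoxa11 and 0.0870 of Hoxa13. The other 3 vehicle libraries held at most 0.126 of Hoxc10, 0.0603 of Hoxa9 and 0.0588 of Hoxa10, and no Hoxa11 or Hoxa13 read. In the auranofin group library 4 was the highest, with 0.370 FPKM of Hoxa10 (others 0.0269 to 0.0459), 0.392 of Hoxa9 (0.0269 to 0.0878) and 0.488 of Hoxc10 (0.0692 to 0.285), though library 1 was also raised in Hoxc10. Summed epididymis markers were 1.26 FPKM in vehicle library 3 and 0 to 0.168 in the other vehicle libraries, but 0.229 in auranofin library 4, within the 0.173 to 0.323 of its group. Mesothelial markers were 20.6 in vehicle library 3 and 20.8 in auranofin library 4, inside the range of the other eWAT libraries (15.1 to 60.3). Smooth muscle markers were the highest of their groups in these same libraries, at 31.05 in vehicle library 3 (others 7.29 to 18.5) and 29.4 in auranofin library 4 (11.03 to 18.4). T and B cell markers were 19.2 in vehicle library 3 (2.79 to 5.75) and 3.25 in auranofin library 4, the lowest of its group. The part of other cell types in these 2 libraries was not tested.

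**Figure D4:**
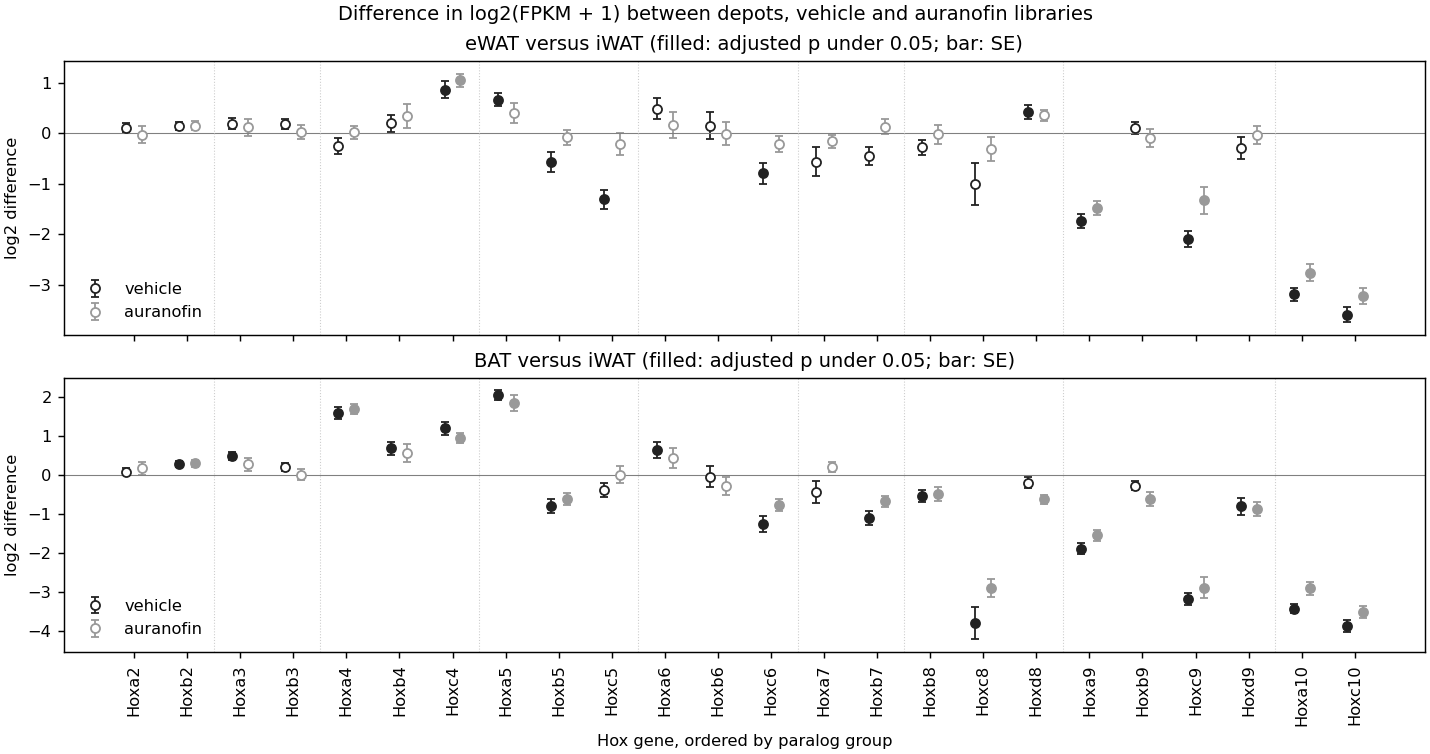
Log2 difference in FPKM + 1 for 24 of the 25 tested Hox genes, for eWAT minus iWAT and BAT minus iWAT, in paralog order; black is vehicle, grey is auranofin, bars are standard errors and filled points have an adjusted p under 0.05 (limma). For eWAT under vehicle, Hoxa10 and Hoxc10 lie lowest, at -3.18 and -3.59. For BAT under vehicle, Hoxa4 and Hoxa5 lie above 0 (1.59 and 2.04), and Hoxc10 and Hoxc8 lie lowest.

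Liver had little Hox RNA. Only 7 of the 40 rows reached a mean of 0.1 FPKM in liver itself, so most genes passed the filter through fat and the counts that follow are a description. Against iWAT 21 of 25 genes passed the test and all 21 were lower in liver, where 61.2% of all genes passed in either direction and 29.1% were lower. Against eWAT 22 of 25 were lower (64.7% of all genes passed, 32.4% as lower) and against BAT 20 of 25 (54.9%, 27.3% as lower), with none of the 25 higher. The median log2 difference over the 25 was -1.43, -0.86 and -0.86, against 0.00, 0.00 and -0.01 over all genes. Hoxb4 was the one gene with a mean of 1 FPKM or more in liver, and its liver libraries overlapped with iWAT (log2 difference -0.52, adjusted p = 0.0124). Hoxa5 was 22.3-fold lower in liver than in BAT (-3.02, adjusted p = 9.24e-12). Hoxc5, with no read in the liver vehicle libraries, was at least 357-fold lower than in BAT, and Hoxc8 at least 2043-fold lower than in iWAT.

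The depot pattern was measured again in the 16 auranofin libraries, which share none with the vehicle fit. Between eWAT and iWAT 5 of 25 genes passed, against 8.96% of all genes, and all 5 had passed in the same direction under vehicle: Hoxa10, Hoxa9, Hoxc10 and Hoxc9 lower (2.92% of all genes) and Hoxc4 higher in eWAT (6.04%). That is 5 of the 10 vehicle calls, and Hoxa5, Hoxb5, Hoxc5, Hoxc6 and Hoxd8 did not pass again. Here too Hoxa10, Hoxa9 and Hoxc10 passed the filter through iWAT alone, and without these 3 the count was 2 of 22. Between BAT and iWAT 16 passed (39.4% of all genes), 4 higher (18.6%) and 12 lower (20.8%), 14 of them shared with vehicle in direction, which is 14 of the 17 vehicle calls. Without the same 3 genes 13 of 22 passed, 4 higher and 9 lower. Between BAT and eWAT 11 passed (44.9%), 3 higher (20.3%) and 8 lower (24.6%), with 7 shared, of 10 under vehicle. For the liver comparisons 23, 22 and 20 genes passed (59.3%, 61.4% and 53.6% of all genes), with 20, 22 and 20 shared. On the TPM scale the auranofin split was 2 higher and 15 lower for BAT against iWAT, in place of 4 and 12, and 2 and 13 for BAT against eWAT, in place of 3 and 8.

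Auranofin itself left no Hox gene past the test in any tissue. In iWAT 22 Hox genes were tested (mean of at least 0.5 FPKM over 8 libraries) and 0 passed limma, as did 0% of the 13164 genes. At an unadjusted p under 0.05 there were 6 Hox genes, 5 of them higher, and 2895 genes in all. The median log2 change was 0.06 over the Hox genes, 12 of which lay above 0, and -0.02 over all genes. In eWAT 0 of 19 passed (0% of all genes), with 4 at an unadjusted p under 0.05, as had 1585 of all 13847 genes. In BAT 0 of 18 passed (0.023%), with 0 unadjusted against 1459 of 13067 genes, and in liver 0 of 2 (0%), with 0 against 793 of 13122. Voom on rebuilt reads also called 0 Hox genes in each tissue. Groups that did not overlap were seen for 2 of 22 Hox genes in iWAT (among them Hoxa10, lower under auranofin; 5.18% of all genes), 2 of 19 in eWAT (Hoxb7 and Hoxc4; 6.95%), 0 of 18 in BAT (5.33%) and 0 of 2 in liver (3.72%).

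In iWAT the smallest p-values were those of Hoxa5 and Hoxd8. Hoxa5 was 3.93, 2.21, 3.53 and 2.63 FPKM under auranofin against 2.03, 1.75, 1.73 and 2.34 under vehicle, a log2 change of 0.44 (SE 0.148, adjusted p = 0.204). Hoxd8 was 7.15, 5.78, 7.38 and 8.37 FPKM against 5.03, 5.802, 4.77 and 5.93 (0.35, SE 0.118, adjusted p = 0.204). Library 2 of the auranofin group fell inside the vehicle range for Hoxa5 and Hoxd8, and the other 3 lay above it. Hoxa10 was 5.71, 8.94, 8.24 and 4.14 FPKM against 9.93, 9.80, 8.97 and 10.4, with every auranofin library below every vehicle library and a change of -0.52 (SE 0.196, adjusted p = 0.204).

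The iWAT count depended on 1 library. Without auranofin library 2, 10 of 23 Hox genes passed, where 36.4% of all genes passed in either direction (4819 of 13248). The share of all genes was not split by direction. Hoxa6 (log2 change 0.87), Hoxb9 (0.70), Hoxb6 (0.65), Hoxa5 (0.55), Hoxd8 (0.44), Hoxc4 (0.42) and Hoxa3 (0.40) were then higher. Vehicle means of Hoxa6, Hoxb9 and Hoxa3 were 0.239, 0.448 and 0.336 FPKM, under the filter of 0.5. These genes were thus admitted by the auranofin libraries, where they are high. Their calls, and the count of 10 that includes them, are a description only. Hoxa3 was not tested in the main fit. Hoxa10 (-0.66, adjusted p = 0.0225), Hoxc5 (-0.59, adjusted p = 0.0457) and Hoxc10 (-0.54, adjusted p = 0.0242) were lower. Marker sums moved with these libraries. Adipocyte markers were 6044 to 7214 FPKM in auranofin libraries 1, 3 and 4, below the vehicle libraries (9561 to 10280) and library 2 (11120). Endothelial markers were 145.7 to 186.7 in those 3, against 76.3 to 104.2 under vehicle and 68.9 in library 2, and Schwann cell markers 36.95 to 120.6, against 4.87 to 14.05 and 7.05. The library size implied by the FPKM was 22327421 to 23518961 in auranofin libraries 1, 3 and 4. It was 18848468 in library 2 and 17251599 to 20272361 under vehicle. Reads assigned to genes were 17302126 to 17672424 in those 3, 18436456 in library 2 and 16015264 to 18337278 under vehicle. The part of these markers and of this scaling in the Hox values was not tested.

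In eWAT 18 of the 19 Hox genes lay above 0, with a median log2 change of 0.34 against 0.00 over all genes. Hoxb7 was 3.10, 4.15, 4.05 and 3.29 FPKM under auranofin and 2.54, 1.56, 2.56 and 2.75 under vehicle (0.48, SE 0.155, adjusted p = 0.429). Hoxc4 was 4.96, 6.49, 6.38 and 5.17 FPKM against 3.70, 2.79, 4.37 and 4.66 (0.48, SE 0.159, adjusted p = 0.429). Neither gene's groups overlapped, although both changes failed the adjustment. Vehicle libraries 1 and 2 of eWAT had the highest macrophage sums (759.5 and 631.7 FPKM, against 121.7 to 345.8 in the other 6) and the highest progenitor and fibroblast sums (726.9 and 791, against 270.5 to 398.7). Without them 16 of 19 Hox genes lay above 0 and the median was 0.13. Adipocyte marker sums were 2415 to 5447 under vehicle and 4652 to 8414 under auranofin, and the part of cell composition in the Hox values was not tested.

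**Figure D5:**
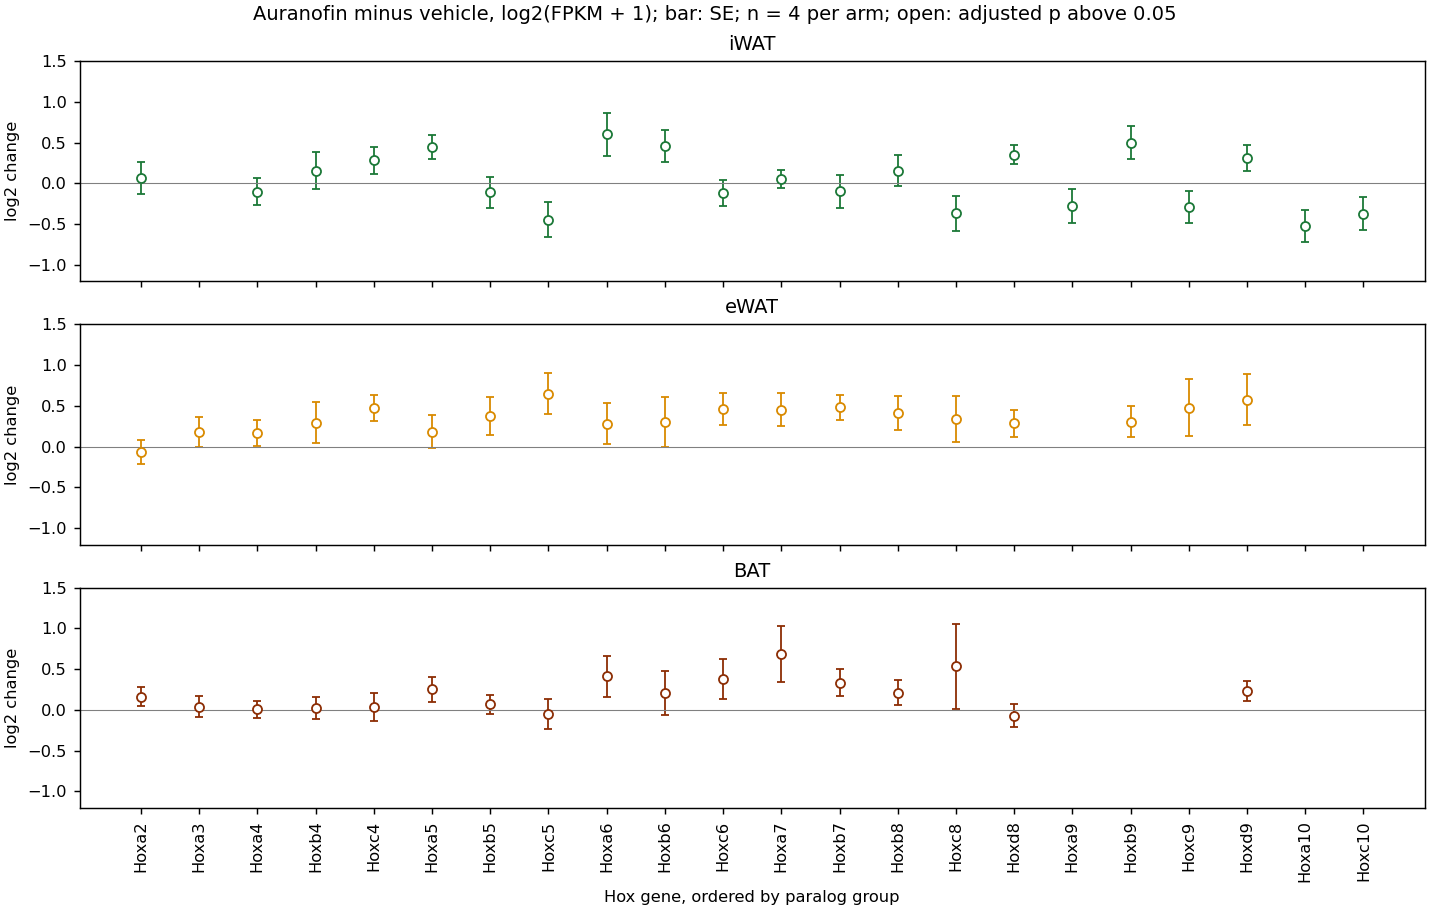
Log2 change in FPKM + 1 under auranofin for Hox genes tested in iWAT (21 shown), eWAT (19) and BAT (17), with standard errors. No gene shown passed the test (limma, adjusted p under 0.05); 18 of 19 points lie above 0 in eWAT, 15 of 17 in BAT and 11 of 21 in iWAT.

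In BAT 15 of 18 Hox genes lay above 0, with a median of 0.19 against 0.02 over all genes. Progenitor and fibroblast marker sums there were 87.1 to 147.3 FPKM under vehicle and 44.0 to 88.5 under auranofin, macrophage sums 22.4 to 43.7 and 11.4 to 23.3, and brown adipocyte sums 3053 to 4495 and 3862 to 6601; their part in the Hox values was not tested. Hoxa7 was 3.00, 4.77, 4.65 and 4.34 FPKM under auranofin against 0.521, 4.195, 2.09 and 3.24 (0.69, SE 0.341, adjusted p = 0.488). Hoxb7 was 2.10, 1.14, 1.80 and 1.60 FPKM against 0.583, 1.39, 1.14 and 1.38 (0.33, SE 0.165, adjusted p = 0.490). The groups overlapped for both, and vehicle library 1 was the lowest value in each. In liver Hoxb4 was 1.68, 1.47, 1.18 and 1.30 FPKM against 1.498, 1.33, 0.920 and 1.03 (0.14, SE 0.115, adjusted p = 0.853), and Hoxa5 was 0.748, 0.811, 0.252 and 0.845 against 0.321, 0.326, 0.780 and 0.585 (0.14, adjusted p = 0.895). Both liver genes overlapped between groups.

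Whether the auranofin change differed between depots was tested as an interaction. No Hox gene passed limma for eWAT against iWAT (0 of 22, 0% of all genes), BAT against iWAT (0 of 23, 0.0224%) or BAT against eWAT (0 of 19, 0%). At an unadjusted p under 0.05 there were 3, 3 and 1 Hox genes, beside 3219 of 13670, 3093 of 13372 and 809 of 13842 genes in all. The smallest p was that of Hoxc5, whose change was 0.65 in eWAT (SE 0.253) and -0.44 in iWAT (SE 0.216), a difference of 1.09 (SE 0.353, adjusted p = 0.177). Its iWAT values under auranofin were 7.37, 9.67, 6.21 and 4.71 FPKM and its eWAT values 8.92, 6.29, 3.36 and 5.53, which overlap, whereas under vehicle they did not.

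Genes that work with or on the Hox clusters were described from lists. TALE homeodomain proteins (Pbx, Meis and Pknox) bind DNA together with Hox proteins, and of 10 tested, 4 were higher and 0 lower in eWAT than in iWAT, where 19.4% of all genes were higher and 18.9% lower. Meis1 rose by 0.50 on the log2 scale (adjusted p = 0.00125), from a mean of 0.371 to 0.950 FPKM. In BAT 2 TALE genes were higher and 1 lower than in iWAT, where 20.9% of all genes were higher and 21.1% lower. Medians of the list were 0.23 and 0.11, against 0.00 over all genes in each comparison.

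Polycomb complexes keep Hox genes silent, and trithorax proteins and H3K27 demethylases keep them active. Of 15 trithorax and demethylase genes, 5 were higher and 1 lower in eWAT than in iWAT (median 0.19; 19.4% and 18.9% of all genes), and 8 were higher and 0 lower in BAT (median 0.33; 20.9% and 21.1% of all genes). Kmt2a, the founding trithorax methyltransferase, had 2.775 FPKM in BAT, 2.465 in eWAT and 1.07 in iWAT, with log2 differences from iWAT of 0.88 for BAT and 0.75 for eWAT (adjusted p = 2.4e-05). Kdm6b, an H3K27 demethylase, was 11.9 FPKM in BAT and 5.04 in iWAT (1.08, adjusted p = 0.000435). Of 12 genes of Polycomb complex PRC2, 3 were higher and 0 lower in eWAT than in iWAT and 2 and 0 in BAT. Of 20 PRC1 genes, 1 was higher and 2 lower in eWAT, and 4 and 1 in BAT. The PRC2 shares called higher were near those of all genes (19.4% in eWAT, 20.9% in BAT), and 18.9% and 21.1% of all genes were lower. None of these lists had a gene past the test for auranofin in any tissue.

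Retinoic acid switches on 3′ Hox genes in the embryo, and of 12 retinoid and Cdx genes tested, 2 were higher and 3 lower in eWAT than in iWAT, and 3 and 5 in BAT. Of all genes, 19.4% were higher and 18.9% lower in eWAT, and 20.9% and 21.1% in BAT. Aldh1a2, which makes retinoic acid, had 5.965 FPKM in eWAT, 0.983 in iWAT and 0.412 in BAT (eWAT minus iWAT 1.80, adjusted p = 6.62e-07). Rarb, a retinoic acid receptor, was 0.853 FPKM in BAT and 0.230 in iWAT (0.58, adjusted p = 0.000282). Of 18 other positional transcription factors, 7 were higher and 6 lower in eWAT (19.4% and 18.9% of all genes), and 2 and 6 in BAT (20.9% and 21.1%). Shox2, a limb gene, was 5.82 FPKM in iWAT, 1.70 in BAT and 0.128 in eWAT (eWAT minus iWAT -2.55, adjusted p = 8.98e-07). Tbx15, a gene of limb and skin, was 3.44 FPKM in iWAT, 1.63 in BAT and 0.0180 in eWAT (-2.11, adjusted p = 4.27e-06). Tbx5, of the forelimb and heart, was 0.964 FPKM in BAT against 0.129 in iWAT (0.79, adjusted p = 1.11e-06), and Wt1, of mesothelium and kidney, was 2.22 in eWAT and 0.0199 in iWAT (1.64, adjusted p = 3e-07).

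Noncoding genes inside the clusters were read as well. Hotairm1, an antisense RNA of cluster A, had 6.36 ± 1.56 FPKM in BAT, 2.52 ± 0.419 in iWAT, 1.92 ± 1.012 in eWAT and 0.513 ± 0.374 in liver (vehicle, SD, n = 4). It was higher in BAT by 1.05 over iWAT (adjusted p = 0.00431) and 1.40 over eWAT (adjusted p = 0.000385), in the direction of Hoxa4 and Hoxa5. Gm15050, also antisense in cluster A, rose by 1.35 in BAT over iWAT (adjusted p = 5.27e-05). The short RNA Gm27861 rose by 1.92, on 47 reads in the BAT vehicle libraries against 4 in those of iWAT. Gm27861 lies within the span of Hotairm1 on the same strand. Hoxd3os1, transcribed across Hoxd8 on the opposite strand, had 1.35 FPKM in eWAT, 0.897 in iWAT and 0.503 in BAT, and fell by 0.64 in BAT against eWAT (adjusted p = 0.000177). Mir10a, beside Hoxb4, had 0 reads in the iWAT vehicle libraries and 12 in the auranofin ones, with an adjusted p of 0.204. None of the 6 noncoding genes named by the rule, Gm27477 included, passed the test for auranofin.

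Genes whose log2 levels ran closest to a leading Hox gene over the 32 libraries were listed as a description, since libraries of 1 tissue are alike in many genes. For Hoxc8 these were Mc2r, the corticotropin receptor (Pearson r 0.978), Matn2, a matrix protein (0.977), and Serpina3c, a serine protease inhibitor (0.9765), out of 12292 candidates. Mc2r had 24.9 FPKM in iWAT, 15.2 in eWAT, 2.23 in BAT and 0 in liver over both arms. For Hoxa5 they were Acss1, a mitochondrial acetyl-CoA synthetase (0.966), Rab6b, a trafficking protein (0.963), and Hk1, a hexokinase (0.959). Acss1 had 48.4 FPKM in BAT, 4.14 in eWAT, 2.29 in iWAT and 0.151 in liver.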

How the data were processed

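The deposited table gives FPKM per gene and library, made by the authors from total RNA prepared with a non-stranded kit, per the labels' protocols. The build mm10 and the tools featureCounts 1.5.0-p3, STAR 2.6.1d, DESeq2 1.20.0 and CASAVA are listed in the submitters' processing notes, without saying which settings were used. Groups came from the sample titles. Reads were rebuilt from FPKM and gene length, and 100% of values came out whole within 0.1 read. Values of log2(FPKM + 1) were compared in R 4.3.3 by the moderated test of limma 3.58.1, two-sided and with a trend on mean level, and Benjamini-Hochberg adjustment was made over all genes tested. Tissues were compared in 1 fit of the 16 libraries of an arm (mean FPKM of at least 0.1), and auranofin with vehicle in the 8 libraries of a tissue (at least 0.5). The code was tested on simulated data. A fold against a group with no read used a floor of 3 reads over the group, which covers counting error only. Figures were drawn with Python 3.11.15 and matplotlib 3.10.9.

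Genes were named by a rule: Hox genes with a vehicle mean of 1 FPKM or more in some tissue (18 genes), with values per library, the 2 smallest p-values per tissue for auranofin, up to 3 genes per list and comparison, 6 noncoding genes of the clusters and 3 genes of like pattern for the highest Hox gene of each depot. Other Hox genes and Hoxa10 under auranofin were described after their values were seen. The Hox genes and lists were chosen with earlier results of these data known. Alternatives tried were a pseudocount of 0.1, other filters, the TPM scale, quantile normalisation, voom on rebuilt reads, a replicate block, 1 fit of all libraries and leaving out libraries, and, chosen after seeing the data, leaving the genes that 1 tissue carried past the filter out of the counts. Of the 40 Hox rows, 38 had the position and length of GENCODE release 21. Promoter sequences are from RefSeq. Some genes, though included in the counts and summed levels, are not reported here by name.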

Additional observations from a re-analysis of the deposited data

Results flagged for a closer look

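Among 110 groups of 4 libraries examined for the named Hox genes, 9 had 1 library whose gap to its nearest neighbour took most of the range of the group, where chance gives about 1 in 20. In eWAT vehicle library 3, Hoxa10 was 0.697 FPKM (others 0.0382 to 0.0588), Hoxa9 was 0.462 (0.0418 to 0.0603) and Hoxc10 was 0.788 (0.0436 to 0.126). In eWAT auranofin library 4, Hoxa10 was 0.370 (0.0269 to 0.0459) and Hoxa9 was 0.392 (0.0269 to 0.0878). Hoxd8 in eWAT auranofin library 2 was 11.95 (8.41 to 8.97). Hoxc10 in iWAT vehicle library 4, the one with the highest muscle marker sum of its group, was 10.7 (14.8 to 15.1). Hoxc5 in BAT vehicle library 2 was 10.6 (5.94 to 6.36), and Hoxa5 in liver auranofin library 3 was 0.252 (0.748 to 0.845).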

How the results depend on the processing

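Of 941 recomputed values for single results of the 18 named Hox genes, 923 kept their direction and their side of the threshold, 15 kept the direction but no longer passed, 2 newly passed and 1 reversed. Of the fits leaving out 1 library, only the weakest and strongest per result are among the 941. Liver comparisons are included, while every value that no longer passed or reversed was a difference between fat depots. The 923 therefore do not measure how stable the depot differences are. The reversed value was Hoxb4 in BAT against eWAT, -0.16 on the TPM scale. Calls lost under some setting were those of Hoxb5, Hoxc6 and Hoxd8 for eWAT against iWAT, Hoxb4 for BAT against iWAT and eWAT, and Hoxc5 for BAT against eWAT, besides those of the low genes given in the text; Hoxa5 and Hoxd8 newly passed in iWAT without auranofin library 2. Of 343 recomputed counts of Hox genes called, 6 moved by over 1.5 times. With a filter at a mean of 1 FPKM, which left 16 Hox genes, liver against eWAT gave 14 and liver against BAT 13 in place of 22 and 20. Besides these, leaving out the genes that 1 tissue carried past the filter gave 2 in place of 5 for eWAT against iWAT under auranofin and moved no other of the 6 depot counts by over 1.5 times. In 1 fit of all libraries the interaction for eWAT against iWAT called 1. Leaving out 1 library at a time gave 0 to 10 for auranofin in iWAT, 0 to 1 for the interaction of eWAT with iWAT and 0 to 4 for that of BAT with iWAT, the highest each time without iWAT auranofin library 2; the cause was not tested. For the tissue comparisons the ranges under vehicle were 8 to 12, 16 to 18 and 8 to 11 between depots. Same-numbered libraries were not alike throughout: correlations of their deviations ran from -0.34 to 0.55 over all pairs of groups, pairs of unlike treatment included. Some pairs were more alike by number, such as liver and BAT under vehicle (mean 0.07 against -0.02 for other numbers). Means were higher for pairs of unlike treatment: iWAT vehicle with iWAT auranofin (0.22 against -0.07) and iWAT vehicle with BAT auranofin (0.17 against -0.06). For eWAT vehicle with eWAT auranofin they were -0.03 against 0.01. These values do not settle whether animals were shared. With the replicate block the counts were 10, 17 and 10 between depots under vehicle and 5, 15 and 11 under auranofin, 21, 22 and 20 for liver under vehicle, 23, 22 and 20 under auranofin, and 0 for auranofin in each tissue and each interaction, so the block moved no count by over 1.5 times. Depth limits the low genes: liver had 60 to 105 Hox reads per library.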
